A study of Mus musculus with 18 samples.

Results

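6 of the 18 arrays in the series compare mouse embryonic stem (ES) cells that lack a retinoic acid-degrading enzyme with wild-type ES cells after a short exposure to retinoic acid (RA). These 6 were chosen by their titles: 3 arrays of Cyp26a1-/- cells and 3 arrays of wild-type cells, all of the AB1 line and all given 100 nM RA for 8 h in the presence of leukemia inhibitory factor (LIF), the cytokine that holds mouse ES cells undifferentiated. Knockout cells carry a disruption of both copies of Cyp26a1. The labels do not say whether the knockout is 1 clone or several, nor whether repeats came from separate cultures. The p-values below thus measure only how far these samples spread, and that spread may be technical. The other arrays used for comparison were 3 control arrays of each genotype at 8 h with LIF and 2 of each genotype after 72 h of 100 nM RA with LIF. A further control array of each genotype without LIF was left out of every test. Socs3, a gene induced by LIF, went against these labels: it read 368 and 215 units on the wild-type and knockout control arrays 1 labelled as with LIF, and 3800.3 and 4551 units on the arrays labelled as without it, while the 6 arrays after 8 h RA ranged from 3102 to 5232 units. The control labels were kept. Where exchanging the 2 arrays of each genotype changed the call of a gene named here, its adjusted p is given. Values are Affymetrix signal intensities in arbitrary units, on which a level can be compared between arrays for 1 gene but not between genes.

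RA, the active derivative of vitamin A, enters the nucleus and binds RA receptors paired with retinoid X receptors on DNA, where the occupied receptors activate target genes. CYP26A1 is a cytochrome P450 that oxidises RA to more polar products, and its own gene is among the best known direct targets of the receptors, which gives the pathway a negative feedback. In ES cells RA drives exit from the undifferentiated state, with Hox genes, the receptor gene Rarb and the premeiotic gene Stra8 among its early targets.

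The promoter of Cyp26a1 holds the kind of element that the receptors bind, and it is shown because Cyp26a1 is both the disrupted gene and the RA target that differed most between the genotypes. The 250 bases before each annotated start in RefSeq were searched on both strands for a pair of half-sites 5 bases apart, each half-site being AGGTCA, or AGTTCA, or GGGTCA, or else GGTTCA. In the Cyp26a1 window (GRCm38.p6, chr19:37697558-37697807, plus strand) a match lay 32 to 16 bases before the start and reads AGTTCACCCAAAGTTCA on the opposite strand. Rarb, an RA target whose signal was close in both genotypes, had a match 53 to 37 bases before its start (chr14:16575477-16575726, minus strand). Capitals mark the match on the gene's own strand.
Cyp26a1: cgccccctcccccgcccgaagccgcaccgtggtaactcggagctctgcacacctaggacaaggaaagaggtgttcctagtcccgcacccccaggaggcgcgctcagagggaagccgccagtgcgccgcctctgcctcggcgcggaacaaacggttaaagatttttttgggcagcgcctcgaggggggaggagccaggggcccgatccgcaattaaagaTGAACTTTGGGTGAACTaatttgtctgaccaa
Rarb: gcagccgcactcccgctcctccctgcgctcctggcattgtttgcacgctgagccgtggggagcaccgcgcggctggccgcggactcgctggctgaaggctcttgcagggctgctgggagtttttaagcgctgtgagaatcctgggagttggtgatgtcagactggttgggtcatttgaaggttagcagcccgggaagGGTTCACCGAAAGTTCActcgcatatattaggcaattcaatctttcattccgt
Such a match occurred in 29 of 32851 promoter windows, or 0.0883%. Among the 18 RA-induced genes listed below, 12 had a promoter window in the table and these 2 held a match. Of the 525 genes called between the genotypes after 8 h RA, 444 had a window and Cyp26a1 was the 1 with a match. A match describes letters in this window and does not show that a receptor was bound.

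Cyp26a1 signal after 8 h RA was 193, 216 and 193 units on the knockout arrays and 637, 1695 and 691 units on the wild-type arrays. The groups did not overlap, and wild-type array 2 stood well above the others. The log2 difference was -2.18 ± 0.29 (SE), a signal 4.53-fold lower in the knockout, with a limma adjusted p of 0.000762 over 11388 genes. It lay between -2.43 and -1.73 when each of the 6 arrays was left out in turn and stayed called each time. The files do not say whether the probe set lies in the disrupted part of the gene, so this signal is no check of the genotype. Without RA the 3 control arrays read 52.6, 9.81 and 23.3 units in the knockout and 17.5, 84.2 and 71.9 units in wild type, a range in which the groups overlapped. RA raised Cyp26a1 in both genotypes, with log2 differences of 3.76 in wild type (adjusted p = 4.69e-06) and 1.98 in the knockout (adjusted p = 0.00311), in comparisons that share arrays with this one and called 0.904% and 0.957% of all genes. By 72 h of RA the signal was 2872 and 3075 units in the knockout and 3402 and 3211 units in wild type, and the genotype difference of -0.15 ± 0.35 was not called (adjusted p = 0.911).

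Few of the other RA targets on the list used here passed the test. Of 18 RA-induced genes tested, 0 rose and 2 fell in the knockout relative to wild type, Cyp26a1 and Nrip1. The median difference of the list was -0.14 against -0.01 over all genes. The list is not the set of genes called for 8 h RA here, which numbered 103 in wild type and 109 in the knockout. Among RA-raised genes outside the list, Adgra2 rose (see chromosome 8) and Pmp22 fell, at -0.85 ± 0.22 (limma adjusted p = 0.0361). Both were chosen after their values were seen. Over all 11388 genes, 4.61% were called in either direction, 1.7% higher and 2.91% lower. Nrip1, a nuclear receptor corepressor, read 502, 577 and 700.1 units in the knockout and 750.0, 1029 and 1042 units in wild type. Its log2 difference was -0.66 ± 0.17 (adjusted p = 0.0345), with no overlap between the groups. The Nrip1 call was lost without wild-type array 2 (adjusted p = 0.127), wild-type array 3 (0.126), knockout array 1 (0.145) or knockout array 2 (0.0879), and with the median of its probe sets (0.717).

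Stra8, a gene of meiotic entry, read 1238, 1875 and 2192 units in the knockout and 2516, 3549 and 1861 units in wild type, so the groups overlapped and the difference of -0.57 ± 0.27 was not called (adjusted p = 0.306). Rarb, which encodes RA receptor beta, read 110.0, 96.7 and 96.1 units in the knockout and 102, 76.8 and 119 units in wild type, a difference of 0.04 ± 0.19 (adjusted p = 0.962). The posterior patterning gene Cdx1 ranged from 401 to 1009 units in the knockout and from 337 to 880.4 units in wild type, again overlapping. Dhrs3, which reduces retinaldehyde to retinol, was at 114 to 149 units in the knockout and 142 to 238 units in wild type, a difference of -0.51 ± 0.24 that was not called (adjusted p = 0.296). Gbx2, a homeobox gene, went the other way, at 4688, 3179 and 3019 units in the knockout against 2414, 1624 and 2329 in wild type. Its difference of 0.77 missed the threshold without a replicate block (adjusted p = 0.0522) and passed it with the block (adjusted p = 0.0128). Exchanging the LIF labels also brought Gbx2 past it (adjusted p = 0.0447).

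None of 17 Hox, Cdx and Hox cofactor genes tested, out of 23 on the array, was called in either direction, with or without the replicate block, and their median difference was 0. The member with the largest rise was Hoxb3 at 0.46 ± 0.22 (adjusted p = 0.308), and the Hox cofactor gene Pbx3 had the largest fall at -0.64 ± 0.28 (adjusted p = 0.247). Hoxb4 read 196, 196 and 142 units in the knockout and 116, 206 and 125 units in wild type, with overlapping groups. Among 12 receptor and cofactor genes, Nrip1 alone was called, and Rara, Rarg and Rxra differed by 0.16 ± 0.33, 0.07 ± 0.22 and -0.09 ± 0.29.

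In retinoid metabolism and transport, 14 of 21 genes on the array passed the filter on dim genes, 0 rose and 2 fell. Besides Cyp26a1 the other was Fabp5, a cytoplasmic fatty acid-binding protein gene whose product can also carry RA. Fabp5 read 1245, 1179 and 1104 units in the knockout and 2960, 2690 and 2259 units in wild type, with every knockout array under every wild-type array. Its log2 difference was -1.16 ± 0.17 (adjusted p = 0.00132). Its difference was -1.08 in control cells and -1.26 after 72 h RA, both called. Crabp2, which delivers RA to its receptors, read 384 to 414 units in the knockout and 251 to 322 units in wild type, and its difference of 0.51 ± 0.22 was not called (adjusted p = 0.25). The 7 members of this list too dim to test included the RA-synthesising genes Aldh1a1, Aldh1a2 and Aldh1a3.

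**Figure D1:**
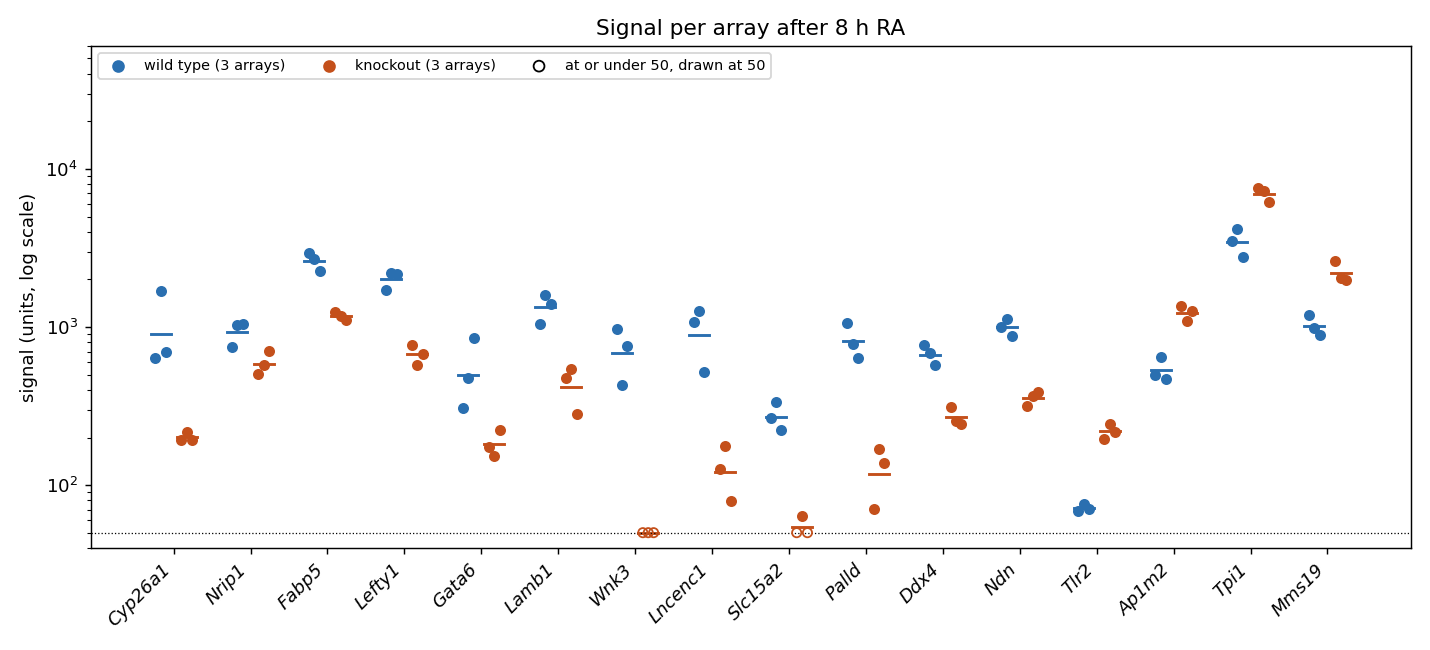
Signal of 16 genes on each of the 6 arrays after 8 h RA, in units on a log axis; points are arrays, bars are geometric means with values under 50 set to 50, and the dotted line is that floor. Every gene drawn has all 3 knockout arrays on 1 side of all 3 wild-type arrays, with Wnk3 at or under 50 units on all 3 knockout arrays.

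Over all genes, 525 of 11388 were called between the genotypes after 8 h RA: 194 higher and 331 lower in the knockout. A fit that blocks on the replicate number called 1114, of which 450 were higher and 664 lower, and all 525 were among them. The median log2 difference was 0.68 over the higher genes and -0.83 over the lower ones, and 126 genes reached 2-fold, 26 of them higher and 100 lower. The 3 knockout arrays lay wholly above the wild-type arrays in 193 of the 194 higher genes and wholly below in all 331 lower genes. Over all genes tested, 8.61% had the knockout arrays wholly above and 11.5% wholly below. The exception was Rcor2, a corepressor subunit gene, at 2274, 833 and 1946 units in the knockout against 834, 499 and 487 in wild type.

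The falls reached further than the rises. Wnk3, an X-linked kinase gene, had all 3 knockout arrays under the floor of 50 units and read 977, 430 and 758 units in wild type, which made it at least 13.7-fold lower (adjusted p = 0.000141). Sh3bgrl, also X-linked, read 194, 284 and 226 units in wild type and was under the floor on all 3 knockout arrays, at least 4.64-fold lower (adjusted p = 0.000108). In all, 9 of the lower genes had every knockout array at the floor and 1 of the higher genes, Skida1, had every wild-type array there.

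Among genes of other chromosomes, Lncenc1, a long noncoding RNA gene of ES cells, read 127, 176 and 79.8 units in the knockout and 1081, 1263 and 523 units in wild type, a fall of 7.37-fold (adjusted p = 0.00101). Slc15a2, a peptide transporter gene, read 39.5, 64.1 and 31.9 units against 266, 334 and 224 (adjusted p = 0.000108). In both of these genes the groups were well separated. Fbp2, which encodes the muscle form of the gluconeogenic enzyme fructose bisphosphatase, fell 4.92-fold (adjusted p = 0.00375), the Ig-like domain receptor gene Ildr1 fell 3.73-fold (adjusted p = 0.00657) and the ephrin receptor gene Epha4 fell 3.47-fold (adjusted p = 0.00395). Each of these 5 genes stayed called when any 1 of the 6 arrays was left out, but Epha4 was not called with the median of its probe sets (adjusted p = 0.134).

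Fewer genes rose by as much. Tlr2, a receptor for bacterial lipoproteins, read 197, 245 and 217 units in the knockout and 68.5, 76.3 and 71.0 units in wild type, a rise of 3.04-fold (adjusted p = 0.00040028). Ap1m2, which encodes an epithelial adaptor subunit for vesicle sorting, read 1353, 1092 and 1267 units against 497, 646 and 469, a rise of 2.32-fold (adjusted p = 0.0013). Fry, which encodes a large protein of cell morphology and mitosis, read 260.1, 267 and 265 units against 107, 114 and 124, a rise of 2.31-fold (adjusted p = 0.00454). All 3 rises held when any 1 array was left out, and in none did the groups overlap. The largest rise by size was Aire, best known for its role in thymic tolerance, at 246, 523 and 454 units against 58.0, 189 and 76.0. Aire was called with an adjusted p of 0.0428, but not without wild-type array 1 (0.16) or 3 (0.129), or without knockout array 1 (0.0526), 2 (0.131) or 3 (0.133). When every gene was given the median of its probe sets, the Aire difference did not change and only its adjusted p moved (0.0623).

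The called genes were spread unevenly over the chromosomes. On chromosome 19, which holds Cyp26a1, 130 of 414 genes tested rose and 2 fell, while 370 of the 414 had a difference above 0 and the median was 0.48. Taken by array pairs of the same number, that median was 0.49, 0.43 and 0.53. The higher genes lay along the whole chromosome: in 13 consecutive windows of at most 32 genes the median ran from 0.36 to 0.62. Mms19, an iron-sulfur protein assembly gene, read 2603, 2049.8 and 1994 units in the knockout and 1194, 983 and 890.2 units in wild type (adjusted p = 0.000506). Gstp1, a glutathione transferase gene, read 14979, 15096 and 17727 units against 8473, 9302 and 6806 (adjusted p = 0.000836), and Nxf1, the mRNA export receptor gene, read 5515, 5929 and 5339 units against 3808, 3120.1 and 3068 (adjusted p = 0.00101). All 3 were higher on every knockout array. The 2 chromosome 19 genes that fell were Cyp26a1 and Fam111a, the latter named after its values were seen, at 237, 360 and 329 units against 891, 661 and 692 (adjusted p = 0.0155).

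Chromosome 8 went the other way over part of its length. Of 638 genes tested, 111 fell and 1 rose, with a median of -0.24, and the pair medians were -0.24, -0.27 and -0.22. In gene order, the first 5 windows of 32 genes, from Insr to Slc25a4, had medians from -0.07 to 0.06. The 8 windows from Cenpu to Zfp319 had medians from -0.49 to -0.30. The window from Usb1 to Fhod1 had a median of -0.14. A pair of windows from Slc9a5 to Mtss2 returned to 0.05 and 0.04, and the last 4 windows, from Il34 onward, lay between -0.44 and -0.37. Among the genes that fell, the cilium gene Bbs2 read 482, 529 and 535 units in the knockout and 1521, 1916 and 1235 units in wild type (adjusted p = 0.000384). Hpf1, a cofactor of ADP-ribosylation after DNA damage, read 2571, 2901 and 2548 units against 4528, 5253 and 5104 (adjusted p = 0.000201). Palld, an actin-binding scaffold gene, had the largest fall on the chromosome, from 1064, 786 and 636 units in wild type to 71.1, 170 and 137 units in the knockout (adjusted p = 0.000587). The 1 gene that rose was Adgra2, an adhesion G protein-coupled receptor gene chosen after its values were seen. It read 293, 258 and 364 units against 201, 170 and 194 (adjusted p = 0.028). Adgra2 is not on the list of RA-induced genes, but RA raised it in both genotypes. The log2 differences were 1.91 in wild type (limma adjusted p = 1.62e-05) and 2.59 in the knockout (5.52e-07). Its control arrays with LIF were all under the floor, so a genotype difference without RA could not be read.

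The other 17 autosomes had medians between -0.06 and 0.05. Between 0.183% and 1.81% of the genes of each rose, and between 0.904% and 3.95% fell. On the X chromosome 25 of 369 genes fell and 2 rose, Sox3 and Nsdhl, the latter named after its values were seen, and the median was -0.06. Of the genes off chromosomes 8 and 19, 281 were called, 63 higher and 218 lower, and with the replicate block 723 were. Among the X-linked genes that fell was the tetraspanin gene Tspan6 (156 to 244 units against 479 to 544, adjusted p = 0.000474). The nucleosome-binding gene Hmgn5 was another (153 to 256 units against 449 to 679, adjusted p = 0.00193). Of 4 Y-linked genes tested, Uba1y, a ubiquitin-activating enzyme gene, fell, at 179, 233 and 217 units against 528, 1105 and 618 (adjusted p = 0.00377).

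**Figure D2:**
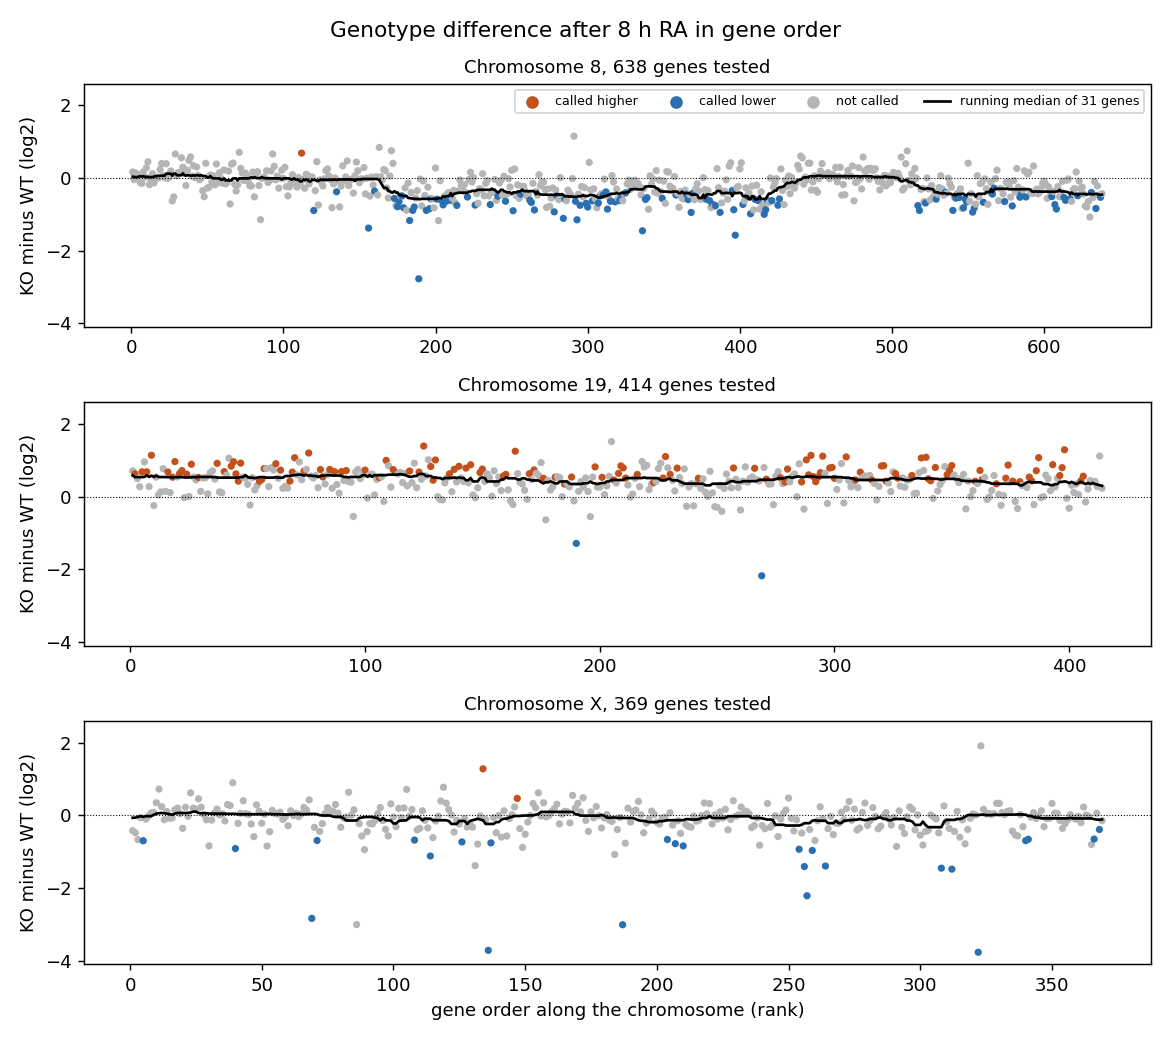
Knockout minus wild type after 8 h RA (log2) for each gene tested on chromosomes 8, 19 and X, in gene order; points are genes and the line is the running median of 31 genes. The line stays above 0 along chromosome 19, where the median was 0.48, and alternates between stretches near 0 and stretches below it on chromosome 8.

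Most of the called genes had the same direction on control arrays of untreated cells, which share no array with the 6 considered here. Of the 194 genes higher after 8 h RA, 192 were above 0 in control cells and 127 were called higher there, which is 65.5% of this list and 61.1% of the 208 genes called higher in control cells. Of the 331 lower genes, 326 were below 0 in control cells and 213 were called, 64.4% of this list and 66.6% of the 320 called lower there. None was called in the opposite direction. With the LIF labels exchanged, 192 and 327 kept their sign and 133 and 231 were called. Over all genes tested, 72.0% had the same sign in both comparisons, and 1.83% and 2.81% were called higher and lower in control cells. Across the 11388 genes, Pearson's r between these genotype differences was 0.71, and 0.68 over the 10336 genes off chromosomes 8 and 19. Genes are not independent replicates, so these values describe the likeness of the 2 comparisons. Nor are the comparisons independent, since 1 fit gave both, and the 72 h one, a shared estimate of each gene's spread. Same-numbered control and RA arrays at 8 h also deviated together from their group means. Pearson's r of these deviations was 0.359, 0.468 and 0.504 in wild type and 0.143, 0.271 and 0.271 in the knockout.

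After 72 h RA, with 2 arrays of each genotype, 186 of the 194 higher genes were above 0 and 83 were called higher, and 310 of the 331 lower genes were below 0 and 92 were called lower. The same sign was seen in 65.1% of all genes tested, and 4.07% were called at 72 h, 1.39% higher and 2.68% lower. A test of the difference between the genotype effects at 72 h and 8 h, added after the data were seen, called 42 genes (0.369%). Lefty1 and Fry were among them, at 1.81 ± 0.30 and -1.64 ± 0.33 (adjusted p = 0.0163 and 0.0475). The single no-LIF array of each genotype had the same sign for 191 of the 194 higher and 322 of the 331 lower genes, against 68.1% of all genes.

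Whether the genotype difference itself changed with 8 h RA was tested as an interaction. Called genes numbered 0 (0%) in limma, with the LIF labels as given or exchanged, and 211 of 11388 genes had an unadjusted p under 0.05, or 1.85%. Cyp26a1 was among the 5 genes with the smallest unadjusted p, with an interaction of -1.78 ± 0.41 (limma unadjusted p = 0.000569, adjusted p = 1). A lack of calls does not show that the genotype difference was the same with and without RA. The other 4 were Msx3, Fxyd5, Hmga2 and Kif16b, all with an adjusted p of 1. Msx3, a homeobox gene, read 18, 61.5 and 34.6 units in the knockout and 124, 92.9 and 124 units in wild type after RA, against 77.2, 78.6 and 42.6 units and 20.01, 10.3 and 32.2 units in control cells. The genotypes were thus ordered oppositely with and without RA, at signals near the floor. Kif16b, a kinesin gene of endosome transport, read 207, 230.2 and 222 units in the knockout and 354, 389 and 449 units in wild type after RA, while its control arrays overlapped at 212 to 238 and 187 to 250 units. For the chromatin protein gene Hmga2 the control arrays were apart, at 502 to 659 units in the knockout and 1156 to 1289 in wild type, and the RA arrays overlapped at 522 to 818.5 and 648 to 706 units.

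**Figure D3:**
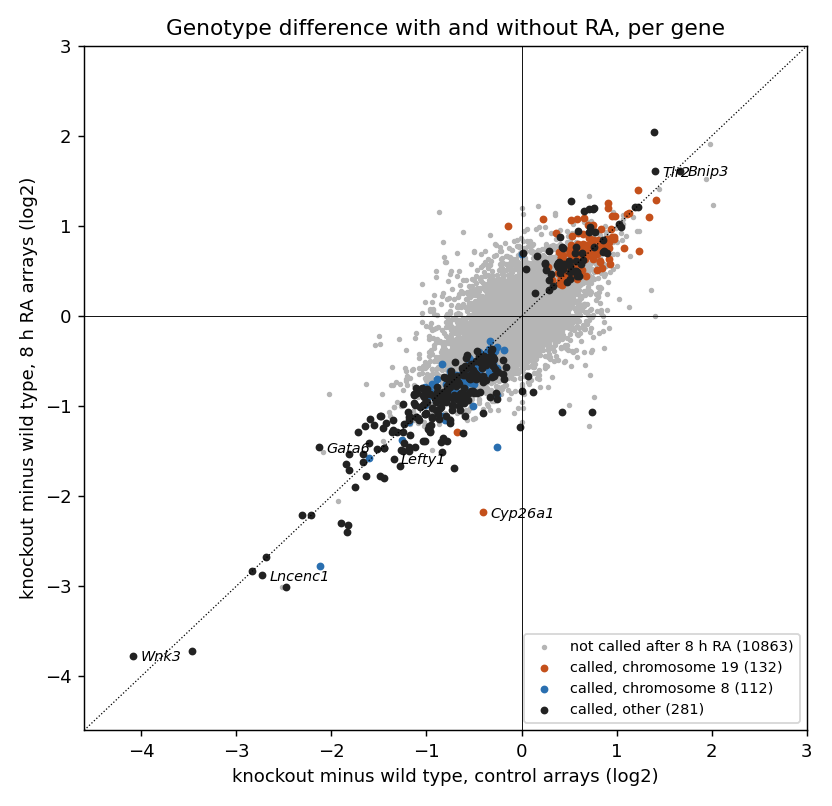
Knockout minus wild type (log2) on the 8 h RA arrays against the same difference on the control arrays, 1 point per gene tested; colours mark the 525 genes called after 8 h RA, by chromosome, and the dotted line is equality. Most called genes lie near that line, while Cyp26a1 sits at -2.18 after RA and -0.40 without it.

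Of 30 pluripotency genes, which maintain the undifferentiated state, 0 were called in either direction, 23 had a difference above 0 and the median was 0.16, against 5481 of 11388 above 0 and a median of -0.01 over all genes. With the replicate block 4 were called, all higher: Gbx2, Zfp42, Tdgf1 and Sox2. The largest change in the list was downward, that of Dppa3 at -1.22, and was not called. With 1 array left out the Dppa3 difference lay between -1.64 and -0.62 (limma adjusted p from 0.242 to 0.781). The highest difference in the list was that of Prdm14, a regulator of naive pluripotency, at 1077, 1256 and 890.2 units in the knockout and 695, 538 and 510.3 units in wild type, with no overlap. Its difference of 0.89 ± 0.30 was not called here or with the block (adjusted p = 0.117 without it), but was called from the 6 arrays alone (adjusted p = 0.0302), without the control arrays (0.0146) and with the LIF labels exchanged (0.00284), and it was called higher in control cells (0.0477). Zfp42, which encodes the ES cell zinc finger protein REX1, read 22517, 23403 and 24311 units in the knockout and 18255, 19966 and 19243 units in wild type, a difference of 0.29 ± 0.08 (adjusted p = 0.0564 without the block and 0.0251 with it). Sox2, a core pluripotency factor, read 9522 to 12137 units against 7144 to 9714 units, so 1 wild-type array lay within the knockout range. Nanog and Pou5f1, the other core factors, differed by 0.30 ± 0.20 (adjusted p = 0.517) and 0.18 ± 0.15 (adjusted p = 0.642). All 8 ES cell markers were bright on all 6 arrays, from 4397 to 40730.0 units. Of 18 genes of the LIF and STAT3 response 0 were called, with a median of 0.09, and among 21 proliferation genes 0 were called, with a median of 0.05. The block added 1 rise in each of these lists, Gbx2 and Top2a.

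The Nodal pathway, which signals through activin receptors and induces its own Lefty inhibitors, had 2 of 15 genes tested fall and 0 rise, and with the block 2 fell and 2 rose. Lefty1, a secreted inhibitor of Nodal, read 771, 576 and 678 units in the knockout and 1716, 2194 and 2172 units in wild type, with a wide gap between the groups. It fell 3.01-fold, a log2 difference of -1.59 ± 0.19 (adjusted p = 0.000384). Lefty2, its paralog, read 246, 182 and 195 units against 393, 364 and 671, a difference of -1.15 ± 0.30 (adjusted p = 0.0411). It was no longer called when any 1 of the 6 arrays was left out (adjusted p from 0.0544 to 0.163). With the median of every gene's probe sets the Lefty2 difference did not change, but its adjusted p became 0.0554. Nodal itself read 1431, 1318 and 1332 units against 1532, 1828 and 1621, which did not overlap but was not called (adjusted p = 0.339). The 2 genes called higher with the block were the activin receptor gene Acvr2b and the Nodal co-receptor gene Tdgf1. Acvr2b read 865, 467 and 666 units in the knockout and 509, 333 and 428 units in wild type, with overlapping groups (adjusted p = 0.255 without the block and 0.00591 with it). Tdgf1 differed by 0.41 ± 0.13 (adjusted p = 0.094 without the block and 0.0234 with it).

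Extraembryonic endoderm, the lineage that ES cells can form beside the embryo proper, was represented by 20 genes tested of 24 on the array. Of these 4 fell and 0 rose in the knockout, 17 lay below 0 and the median was -0.75, against -0.01 over all genes. With the replicate block 8 fell, while over all 11388 genes the block called 1114 in either direction. Lamb1, a laminin chain gene of the basement membrane, read 478, 544 and 283 units in the knockout and 1052, 1599.5 and 1408 units in wild type, a fall of 3.18-fold (adjusted p = 0.00419). With the median of its probe sets in place of the brightest, the Lamb1 difference was -0.80 and was not called (adjusted p = 0.0689). Pdgfra, the receptor gene that marks primitive endoderm, was under the floor on all 3 knockout arrays and read 97.6, 114 and 200 units in wild type, at least 2.61-fold lower (adjusted p = 0.0108), and was not called with a floor of 100 (adjusted p = 0.4), from the 6 arrays alone (0.0663) or with the median of its probe sets (0.228). The endoderm transcription factor gene Gata6 read 175, 153 and 223 units against 306, 475 and 853 and fell 2.75-fold (adjusted p = 0.0211). Its call was lost without wild-type array 2 (adjusted p = 0.0575) or 3 (0.0826), without knockout array 1 (0.0691) or 2 (0.0719), and with the LIF labels of a pair of control arrays exchanged (0.0649) or the median of its probe sets (0.0829).

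Cubn, an endocytic receptor gene of visceral endoderm, read 4.72, 4.17 and 12.2 units in the knockout and 101, 518 and 239 units in wild type (adjusted p = 0.0245), at least 4.64-fold lower. Cubn was not called without wild-type array 2 (0.105) or 3 (0.0677) or without knockout array 1 (0.0703), 2 (0.0617) or 3 (0.0724), nor with the LIF labels exchanged (0.0581) or the median of its probe sets (0.126). Dab2 and Rhox5 were not called without the replicate block (adjusted p = 0.194 and 0.064) and were called lower with it (adjusted p = 0.0423 and 0.00862). Dab2, an endocytic adaptor gene, read 70.8, 97.1 and 88.5 units in the knockout and 79.5, 618 and 288 units in wild type, so the groups overlapped. Rhox5, an X-linked homeobox gene, read 122, 86.6 and 72.5 units in the knockout and 352, 3346 and 338 units in wild type, a difference of -3.01 ± 0.87. Wild-type array 2 was the highest for both genes, and all 3 wild-type arrays lay above the knockout arrays for Rhox5. The summed signal of the whole list was 9197 to 12525 units in the knockout and 11524 to 23706 in wild type, so the groups overlapped. That of the 5 defining markers was 509 to 713 units and 683 to 1868 units, and none of the 5 was at or under 50 on all 6 arrays. The part that endoderm-like cells among the ES cells had in these differences was not tested, and in RNA from a whole culture fewer such cells and less RNA per cell cannot be told apart. Of 7 defining fibroblast feeder markers, 3 were at or under 50 units on all 6 arrays, and their sums overlapped, at 410.0 to 661 units in the knockout and 377 to 602 in wild type.

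Imprinted genes, expressed from 1 parental copy, had 3 of 23 tested fall and 0 rise, with a median of -0.39 and 18 below 0, and with the block 5 fell. Ndn, the paternally expressed necdin gene, read 318, 366 and 388 units in the knockout and 1003, 1124 and 874 units in wild type, a fall of 2.80-fold (adjusted p = 0.00175), and stayed called without any 1 array. The other 2 were Grb10, a growth inhibitor gene at -0.71 ± 0.17 (adjusted p = 0.0235), and Cdkn1c, which encodes the cell cycle inhibitor p57, at -1.65 ± 0.45 (adjusted p = 0.0497). Grb10 was not called without wild-type array 1 (adjusted p = 0.0535) or 3 (0.0971) or without knockout array 1 (0.0898) or 2 (0.0728), nor with the median of its probe sets (0.883). Cdkn1c was not called without wild-type array 1 (0.14) or 3 (0.173) or without knockout array 1 (0.0937), 2 (0.143) or 3 (0.114). With the median of every gene's probe sets the Cdkn1c difference did not change, but its adjusted p became 0.0717.

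Among 22 cell cycle inhibitor and p53 target genes 2 fell and 0 rose, Cdkn1c and Ccng1, with a median of -0.28. Ccng1, a cyclin G gene induced by p53, read 2803, 2875 and 2005 units against 5175, 4998 and 3807, a difference of -0.87 ± 0.19 (adjusted p = 0.0161). Its call was lost without wild-type array 1 (adjusted p = 0.0686) or 2 (0.0631) or knockout array 3 (0.0768). With the block 5 fell, among them Cdkn1a and Mdm2, both targets of p53. Cdkn1a read 424, 326 and 343 units against 518, 705 and 454 (adjusted p = 0.0755 without the block and 0.021 with it), and the groups did not overlap.

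Of 13 germ cell and X-linked testis antigen genes, 3 fell and 0 rose, with a median of -0.33. Ddx4, the germ cell RNA helicase gene, read 311, 254 and 243 units in the knockout and 766, 681 and 572 units in wild type (adjusted p = 0.000506), and stayed called without any 1 array. The X-linked Fmr1nb and Mageb16 had larger falls of -3.72 ± 0.79 and -3.01 ± 0.65 but varied more, with wild-type Fmr1nb at 954, 2372 and 181 units and wild-type Mageb16 at 1179.5, 1725 and 294 units. Neither was called without wild-type array 1 (adjusted p = 0.0567 and 0.0671), wild-type array 2 (0.0655 and 0.076) or knockout array 1 (0.0513 and 0.0744), and Fmr1nb was not called without knockout array 3 (0.0544).

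Hypoxia response and glycolysis genes moved in both directions. Of 23 tested, 2 rose and 2 fell, with a median of 0.23 and 19 above 0, and with the block 5 rose and 2 fell. Tpi1, the glycolytic triosephosphate isomerase gene, read 7525, 7219 and 6179.8 units in the knockout and 3489, 4152 and 2777 units in wild type, a rise of 2.03-fold (adjusted p = 0.00849). Bnip3, a mitophagy gene induced by hypoxia, read 907, 1448 and 1029.5 units against 409, 499 and 232 (adjusted p = 0.0358). Its call was lost without wild-type array 1 (0.078) or 3 (0.142) or knockout array 1 (0.0671), 2 (0.119) or 3 (0.0869). With the median of every gene's probe sets the Bnip3 difference did not change, but its adjusted p became 0.0546. Ddit4, a stress-induced inhibitor of mTOR signalling, fell from 534, 609 and 648 units in wild type to 267, 305 and 319 units in the knockout (adjusted p = 0.00816). P4ha2, a collagen prolyl hydroxylase subunit gene, had a log2 difference of -1.20 ± 0.24 (adjusted p = 0.0114), and was not called without wild-type array 2 (0.0531).

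The remaining lists held few calls. Of 11 neural genes 1 rose and 1 fell: Sox3 at 601, 377 and 469 units against 137, 203 and 264 (adjusted p = 0.0252), and Neurod1 at 69.5, 89.8 and 53.3 units against 251, 159 and 121 (adjusted p = 0.028). With the median of its probe sets Sox3 was not called (adjusted p = 0.145). Both calls were lost without wild-type array 1 (0.108 and 0.121), wild-type array 2 (0.0635 and 0.0672), knockout array 1 (0.103 and 0.0779) or knockout array 3 (0.0724 and 0.118). Of 13 basement membrane and matrix genes 1 fell, Lamb1, and with the block 2 more were called, higher. None of the 7 primitive streak and mesoderm genes, 11 trophectoderm genes, 10 Wnt response genes, 16 immediate early and stress genes and 7 fibroblast feeder genes tested was called. With the block 1 gene each of the Wnt and immediate early lists was called: the Wnt inhibitor gene Notum higher (adjusted p = 0.0151, and 0.0418 without the block but with the LIF labels exchanged) and the immediate early gene Jun lower (adjusted p = 0.0338). Counting each gene once, 22 list members were called, 3 higher and 19 lower, and 44 with the block. The block also raised the number called over all 11388 genes, from 525 to 1114, which stands beside every block count given for a list.

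**Figure D4:**
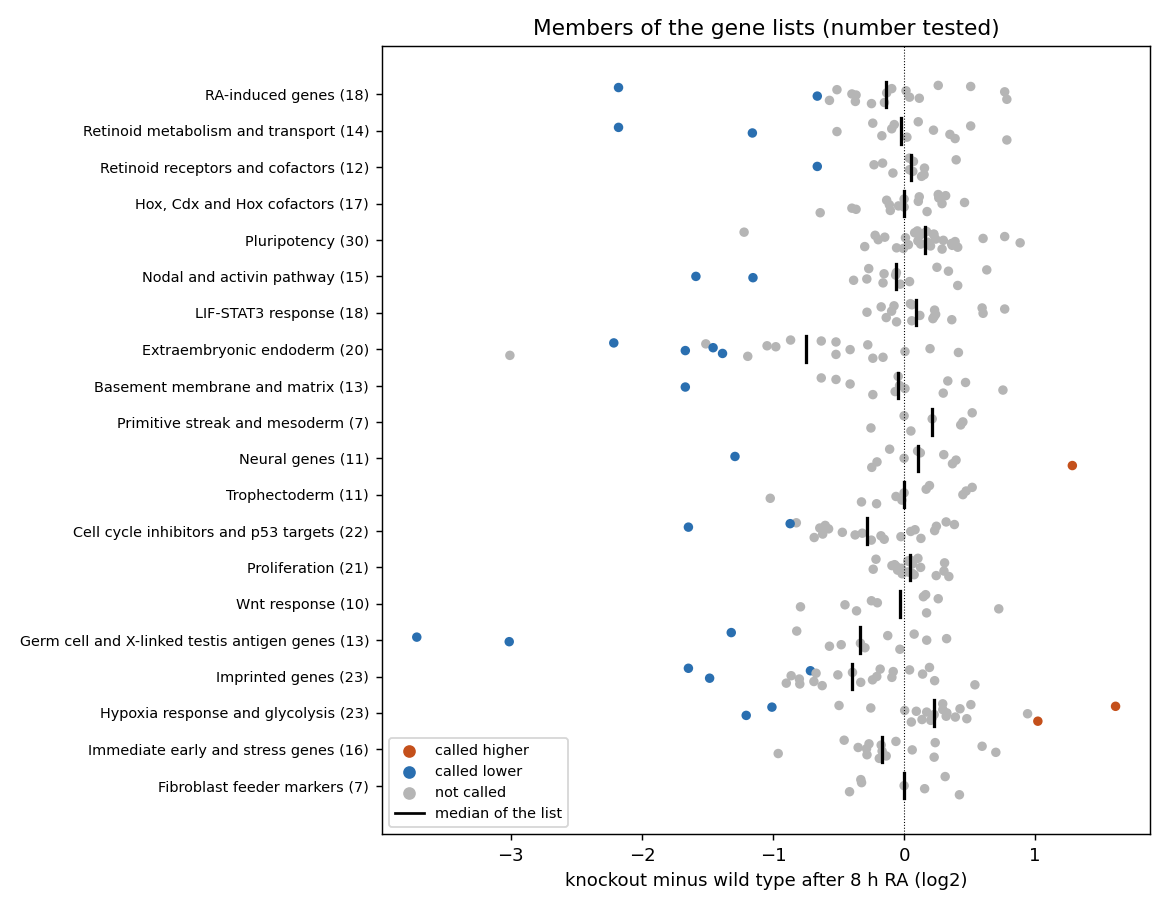
Knockout minus wild type after 8 h RA (log2) for the members of 20 gene lists that were tested, with the number tested in brackets; points are genes coloured by call, black bars are list medians. The median of the extraembryonic endoderm list lies at -0.75 and that of the Hox list at 0.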

How the data were processed

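Total RNA of 18 AB1 samples was measured on 1 Affymetrix array each. The authors deposited 1 linear intensity per probe set and array, made with MAS5 per the submitters' processing notes. The MAS5 version is not given in the sources used here. As deposited, the 2% trimmed mean was 500 on each array. The 6 arrays had medians of 57.5 to 69.7 units.

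Arrays were rescaled to that mean, 50 was set as the floor, and values were put on the log2 scale. On the 6 arrays 42.8% to 47.0% of probe sets lay at that floor, and a fold against a group wholly at it is written "at least". Of 45101 probe sets, 34958 had 1 gene symbol, 932 several and 9211 were not listed, and 34754 matched RefSeq (GRCm38.p6), used for chromosome, gene order and promoters. Each gene was represented by its brightest probe set, by mean log2 over the 18 arrays. A gene was tested if 2 of the 16 arrays of the 6 replicated groups reached 100 units, which left 11388 of 18194 genes. limma 3.58.1 in R 4.3.3 (lmFit, eBayes with trend) was fitted to those 16 arrays with 10 residual degrees of freedom. The same code was run on simulated arrays with independent noise. These held no shared deviation of same-numbered arrays, so that run cannot speak to the lack of a block. Adjusted p-values are two-sided and Benjamini-Hochberg over all genes tested, and "rose", "fell" and "called" mean one under 0.05. The median SE of the difference was 0.19. Arrays have no count depth, and their number limits the precision.

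Same-numbered arrays deviated together (Pearson's r of deviations from group means 0.28, 0.27 and 0.29 for the 3 pairs). The labels do not state that the numbers pair the samples. The main fit has no block, and SEs, counts and adjusted p-values are from it unless another setting is named. The block is given where it changes the call of a gene or the count of a list described. With the block all 68 named genes called stayed called. In wild type 1 RA array and 1 control array with LIF, besides the first of each, have no number in their titles. Each was taken as array 2 by elimination. With a block in which arrays without a number count as array 1, 3 of the 68 lost their call. Cdkn1c was among them (limma adjusted p = 0.0667). The members and the gene lists were chosen with earlier results of these data known. Named genes are Cyp26a1, the largest rises and falls among called genes whose groups do not overlap (12 each way on any chromosome, 10 each way off chromosomes 8, 19 and X), the 8 smallest adjusted p on each of those chromosomes, up to 4 called members per list (or the 2 largest changes) and the 5 smallest p of the interaction. The text describes a part of them. List members named to show a role, and the examples under the block, were chosen after their values were seen. Alternatives changed the floor, scale, normalization, filter, probe-set rule, trend, arrays in the fit and LIF labels.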

Additional observations from a re-analysis of the deposited data

Results flagged for a closer look

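Lefty1 and Fry differed in their genotype effect between 8 h and 72 h of RA, by an interaction test added after the data were seen. For Lefty1 the effect after 72 h minus that after 8 h was 1.81 (limma adjusted p = 0.0163). At 72 h it read 3409 and 3060.4 units in the knockout and 2727 and 2826 units in wild type, whereas at 8 h every knockout array was below every wild-type array. For Fry it was -1.64 (adjusted p = 0.0475), with 122 and 156 units in the knockout and 160.3 and 216 units in wild type at 72 h. This Fry call was lost without any 1 of the 6 arrays after 8 h RA (adjusted p from 0.0798 to 0.128). Other settings that lost it were log2 of the signal plus 32 (0.157), quantile normalization (0.131) and a filter at 200 (0.0836). So did the fit without control arrays (0.09) and the block in which arrays without a number count as array 1 (0.0767).

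In that interaction 42 genes (0.369%) were called, 2 above 0 and 40 below. Many of them, such as Tagln, which encodes a smooth muscle actin-binding protein, had all 6 of the 8 h RA arrays under the floor and differed at 72 h. Tagln read 67.5 and 128 units in the knockout and 3654 and 4552 units in wild type at 72 h.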

How the results depend on the processing

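Of 68 named genes called, 34 stayed called under every alternative run, and 0 reversed. Cyp26a1 kept its call under all, at -2.43 to -1.73 with 1 array left out and -2.18 to -2.02 otherwise. Against 525 called genes, 1114 were called with the replicate block, 266 from the 6 arrays alone, 126 with a 2-fold minimum and 248 to 360 with 1 array left out (287, 293 and 348 without wild-type array 1, 2 and 3, and 252, 360 and 248 without knockout array 1, 2 and 3). Off chromosomes 8 and 19 the 281 became 723, 143 and 102 under those settings, 183 without the 72 h arrays and 116 to 180 with 1 array left out. The 22 list members became 44 with the block, 10 with no filter on dim genes, 13 with the median of a gene's probe sets and 11 to 16 with 1 array left out. The chromosome 19 median was 0.30 with no filter and 0.46 to 0.49 with 1 array left out. The chromosome 8 median was -0.20 with a floor of 100, -0.069 with no filter, -0.27 with a filter at 200, -0.21 with median probe sets and -0.26 to -0.21 with 1 array left out. The interaction with 8 h RA had 2 calls with no filter and 0 under each other setting, the block included. The 42 calls of the 72 h interaction, a comparison added later, became 197 with a floor of 100, 9 with log2 of the signal plus 32, 23 with quantile normalization, 125 with no filter, 14 with a filter at 200, 9 without control arrays, 74 without the trend and 15 to 40 with 1 array left out. The fit without the 72 h arrays was also chosen after seeing the data. The cause of these shifts was not tested. Some settings leave fewer arrays or genes than the main fit, and the one with no filter tests more genes. Signals near the floor understate changes.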
